A study of Mus musculus with 8 samples.

Results

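Group 2 innate lymphoid cells (ILC2s) are tissue-resident lymphocytes that secrete type 2 cytokines. Here, the transcripts of 9 genes for enzymes of eicosanoid and serotonin synthesis were followed in cultured murine lung ILC2s after chemical activation of the mechanosensitive channel Piezo1. The genes were taken by symbol as a list of enzymes (Pla2g4a, Ptgs1, Ptgs2, Hpgds, Alox5, Alox5ap, Ltc4s, Lta4h and Tph1), and all 9 were among the 23183 genes in the count files. The series compared 4 libraries of ILC2s treated with 5 µM Yoda1, a Piezo1 agonist, with 4 libraries treated with 0.1% DMSO, the vehicle, to ask which transcripts respond to Piezo1 activation. The treatment lasted 3 h. All 8 libraries carry the genotype label C57BL/6. The methods describe wild-type mice of both sexes aged 6–10 weeks that had received IL-33, from which lung ILC2s were enriched with a pan-ILC kit and CD45 beads and cultured in IL-2, IL-7 and IL-33 at 10 ng/mL each, so both groups had been exposed to these cytokines. The sources used here do not say if the 4 samples in each group are separate mice or cultures of a common cell pool, and the p-values measure only the spread between these samples.

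Eicosanoids are lipid mediators made from arachidonic acid, which cytosolic phospholipase A2 (Pla2g4a) cleaves from membrane phospholipids when intracellular calcium rises. The cyclooxygenases, constitutive Ptgs1 (COX-1) and inducible Ptgs2 (COX-2), turn it into prostaglandin H2, from which the hematopoietic synthase Hpgds makes prostaglandin D2. In the leukotriene branch, 5-lipoxygenase (Alox5) and its activating protein (Alox5ap) make leukotriene A4, which Lta4h hydrolyzes to leukotriene B4 and Ltc4s conjugates with glutathione to leukotriene C4. Tph1 is the rate-limiting tryptophan hydroxylase of serotonin synthesis outside the nervous system. ILC2s are known to respond to prostaglandin D2 and cysteinyl leukotrienes, and activated ILC2s are known to express Tph1.

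Of the 9 genes, only Ptgs2 passed the threshold, and it rose 1.47-fold with Yoda1. It was 1 of 7 tested (14.3%), beside 10.9% of all genes tested. The other 6 genes with enough reads to be tested did not pass, Ptgs1 was near 0 counts and Ltc4s was at 0 or 1 count per library. The levels of the 9 genes spanned a far wider range than the differences between the groups. Lta4h and Tph1 were abundant transcripts, while Pla2g4a and Hpgds were counted fewer than 40 times in every library.

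The windows below show the start of the gene that rose, Ptgs2, beside that of its near-silent paralog Ptgs1, from the RefSeq promoter set on GRCm38.p6, each running from 250 bases before to 50 bases after the annotated start and written 5′ to 3′ on the gene's strand. Ptgs2 lies at chr1:150099781-150100080 (plus strand) and Ptgs1 at chr2:36230176-36230475 (plus strand). Capitals mark 4 motifs searched on both strands, namely the CRE half-site TGACG, the E-box CACGTG, the C/EBP palindrome TTGCGCAA and the GC box GGGCGG.
Ptgs2: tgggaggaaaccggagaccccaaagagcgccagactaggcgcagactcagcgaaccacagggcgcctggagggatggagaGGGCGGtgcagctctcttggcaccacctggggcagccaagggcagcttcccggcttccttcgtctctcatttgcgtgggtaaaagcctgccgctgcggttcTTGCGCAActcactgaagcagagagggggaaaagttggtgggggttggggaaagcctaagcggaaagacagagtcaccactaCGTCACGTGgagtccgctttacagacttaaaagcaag
Ptgs1: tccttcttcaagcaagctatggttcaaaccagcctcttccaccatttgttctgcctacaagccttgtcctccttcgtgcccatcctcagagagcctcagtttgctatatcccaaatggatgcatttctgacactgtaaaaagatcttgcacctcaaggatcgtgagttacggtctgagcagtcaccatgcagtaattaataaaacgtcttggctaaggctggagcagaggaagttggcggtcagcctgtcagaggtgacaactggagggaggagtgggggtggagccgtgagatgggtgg
The Ptgs2 window holds each of the 4 motifs 1 time. Its CRE half-site (on the reverse strand, from base 264 of the window) shares letters with the E-box (from base 267), and the C/EBP palindrome starts at base 182. The Ptgs1 window holds 0 of the 4, and so do those of Pla2g4a, Hpgds, Ltc4s and Lta4h. A Tph1 window holds 1 CRE half-site, and another holds 3 with 2 GC boxes. The Alox5 window holds 1 GC box. That of Ptges, described below as higher with Yoda1, holds 2 GC boxes but no CRE half-site, E-box or C/EBP palindrome. Whether the motifs bear on level or response was not tested. Among the 32851 windows of the set, 20.8% hold the CRE half-site, 7.15% the E-box, 0.183% the C/EBP palindrome and 35.7% the GC box, and 4 hold the first 3 of these together. These motifs were chosen because they are known from the Ptgs2 promoter, so their presence there is a description. The promoter set holds 8 of the 9 genes, all except Alox5ap.

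Total counts per library ranged from 13435521 to 18216729 in the DMSO group and from 12438009 to 19534653 in the Yoda1 group, so 1 count corresponded to 0.0514 to 0.0807 CPM (counts scaled to a common library size with TMM factors). Of all 23183 genes, 12239 had enough reads for edgeR's quasi-likelihood test, and 10.9% of these passed an adjusted p of 0.05, 739 higher and 592 lower in Yoda1 (553 and 809 with library size alone, 505 and 958 with upper-quartile scaling). The 14 ILC2 markers examined, among them Gata3, Il1rl1 and Il7r, were all detected, at 65.9 CPM or more in every library. Their summed CPM was 18746 to 19268 with DMSO and 21052 to 21449 with Yoda1, with 7 higher and 1 lower past the threshold. The list also holds the effector genes Il13, Il5, Areg and Arg1, and the most abundant genes weigh most in the sum. The sum is thus not a measure of ILC2 content. Markers of other cells that make eicosanoids or serotonin were low beside the ILC2 markers. The summed CPM of 12 mast cell and basophil markers was 9.90 to 12.8 with DMSO and 10.2 to 12.3 with Yoda1. Of the 12, 4 (Fcer1a, Mcpt4, Tpsab1 and Prss34) were at 3 counts or fewer in every library, while 5 were tested and none passed. This sum lay above the CPM of Pla2g4a, Hpgds and Alox5ap, which was at most 2.57 in any library. It was close to the CPM of Ptgs2, which was 8.38 to 10.9 with DMSO and 11.7 to 14.8 with Yoda1. The summed CPM of 10 macrophage and monocyte markers was 3.84 to 4.58 and 2.92 to 4.50, with 7 of the 10 at 3 counts or fewer (Lyz2 and Csf1r among them). That of 6 platelet and megakaryocyte markers was 0.689 to 1.41 and 0.825 to 1.22. The 9 neutrophil and eosinophil markers found in the files summed to 2.50 to 3.18 and 2.86 to 4.05 CPM, and 5 B cell markers to 5.32 to 7.07 and 5.54 to 7.20. The 6 T cell markers in the files summed to 69.8 to 77.5 and 75.2 to 84.8 CPM, and 8 epithelial and tuft cell markers to 23.8 to 24.9 and 21.4 to 24.0 CPM, among which Dclk1 was higher past the threshold. The T cell sum and the epithelial and tuft cell sum lay above the CPM of Ptgs2 and of Alox5 (at most 20.8) in every library. None of the sums of the other cell types separated the groups without overlap, and the part of other cells in the values below was not tested. In bulk RNA, fewer cells of a type and less RNA per cell cannot be told apart.

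Ptgs2 encodes the inducible cyclooxygenase, which commits arachidonic acid to prostaglandin synthesis. It lies on chromosome 1 from 150100031 to 150108227 on the plus strand of GRCm38 (GENCODE M21) and has 10 exons, none of which overlaps an exon of another gene. In the DMSO libraries it was at 8.89, 8.71, 8.38 and 10.9 CPM, from 131 to 159 counts. In the Yoda1 libraries it was at 13.7, 14.8, 14.0 and 11.7 CPM, from 170 to 243 counts. Every Yoda1 library lay above every DMSO library, with DMSO replicate 4 the highest of its group and Yoda1 replicate 4 the lowest of its own. The mean rose from 9.21 ± 1.12 to 13.6 ± 1.31 CPM (SD, n = 4 each). On the log2 scale the fold change was 0.56 with a standard error (SE) of 0.099, and its adjusted p by edgeR was 0.000228. The 95% interval of the increase was 1.28-fold to 1.70-fold. The two-sided exact permutation test of the 8 CPM values gave p = 0.0286, the smallest that 4 samples against 4 allow. Among all genes tested, 6.04% were higher past the threshold and 15.5% had groups that did not overlap. Of the 7 enzyme genes tested, 1 was called (14.3%), beside 10.9% of all genes called in either direction. Of the 7, only the same Ptgs2 had non-overlapping groups.

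**Figure D1:**
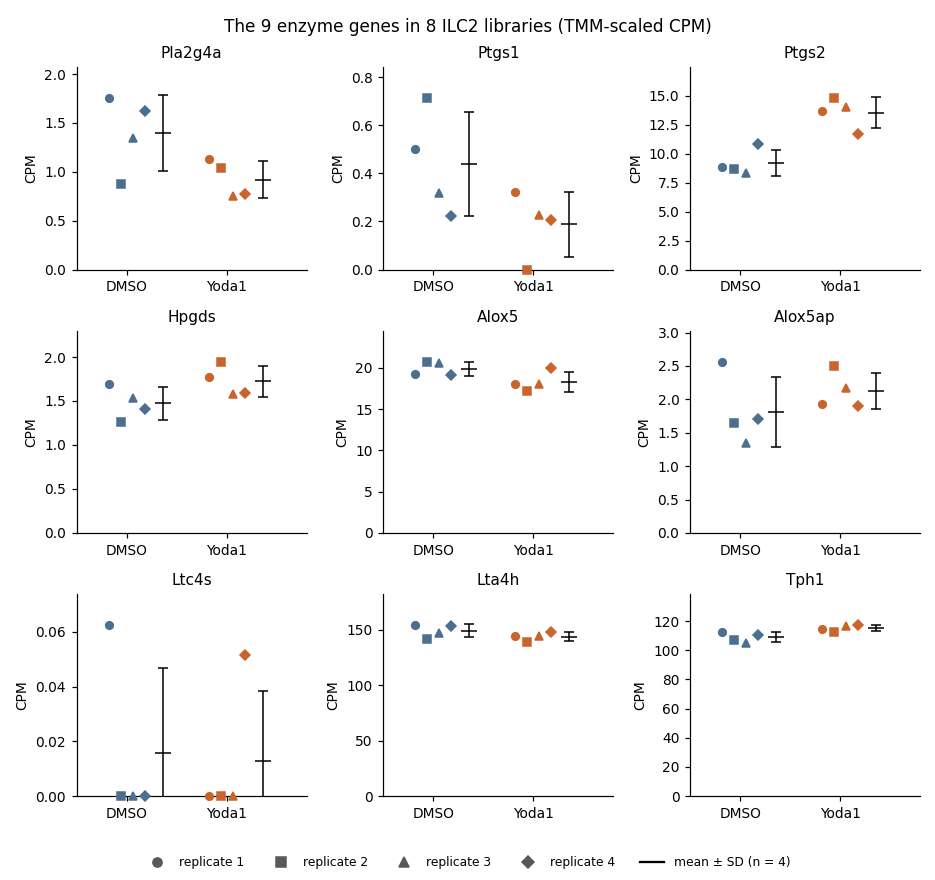
CPM (TMM-scaled, y axis from 0, a scale for each gene) of the 9 enzyme genes in the 4 DMSO and 4 Yoda1 libraries (x axis, with a symbol for each replicate number), with the mean and SD of each group beside the points. Ptgs2 is at 8.38 to 10.9 CPM with DMSO and 11.7 to 14.8 with Yoda1, while the groups overlap for the other 8 genes and Ltc4s is at 0 in 6 of 8 libraries.

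Ptgs1, the constitutive cyclooxygenase of many tissues, was counted 8, 13, 5 and 3 times in the DMSO libraries and 4, 0, 3 and 4 times in the Yoda1 libraries. The Yoda1 libraries thus lay at 4 counts or fewer, near the floor of 3 counts used here, and the gene did not reach the number of reads required for the test. Mean CPM was 0.439 ± 0.216 in the DMSO group and 0.188 ± 0.136 in the Yoda1 group (SD, n = 4 each; exact permutation test, p = 0.143), and the groups overlapped. Fitted without a filter on low counts, its log2 value was -1.29 with an adjusted p of 0.173 in edgeR. Whether Ptgs1 differed between the groups was not detectable at this depth. Over the 8 libraries together, 40 reads were counted on Ptgs1 and 1407 on Ptgs2, whose transcripts are 2867 and 4453 bases long. Mean CPM of Ptgs2 was 9.21 with DMSO and 13.6 with Yoda1, so most of the cyclooxygenase mRNA counted was Ptgs2 in both groups. An exon of the opposite-strand model Gm43621 overlaps Ptgs1, and the sources used here do not say if reads were assigned by strand.

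Hpgds, which makes the ILC2 chemoattractant prostaglandin D2, was a rare transcript. It was at 1.69, 1.26, 1.53 and 1.40 CPM with DMSO and at 1.78, 1.95, 1.57 and 1.59 CPM with Yoda1, from 19 to 32 counts. The groups overlapped (exact permutation test, p = 0.114), and the fitted log2 fold change was 0.23 ± 0.226 (SE; adjusted p = 0.576 by edgeR). The 95% interval, from 0.851-fold to 1.61-fold, is too wide to show that the groups were alike.

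Pla2g4a, the calcium-dependent phospholipase that supplies arachidonic acid, lies 138740 bases upstream of Ptgs2 on chromosome 1 (149829618 to 149961290, minus strand), with 0 protein-coding genes between them. It was at 1.75, 0.876, 1.34 and 1.63 CPM with DMSO and at 1.13, 1.03, 0.750 and 0.772 CPM with Yoda1, from 10 to 28 counts. DMSO replicate 2 lay among the Yoda1 libraries and the other 3 lay above them all. The log2 fold change was -0.59 (SE 0.285), which did not pass the adjustment (edgeR unadjusted p = 0.0465, adjusted p = 0.189, exact permutation test p = 0.0857). Without DMSO replicate 2 the log2 fold change was -0.78, with an adjusted p of 0.103 by edgeR. It was -0.46 (adjusted p = 0.381) without DMSO replicate 1 and -0.50 (adjusted p = 0.389) without Yoda1 replicate 4. The fitted fold changes of the neighbors Pla2g4a and Ptgs2 had opposite signs, but only that of Ptgs2 passed, so a fall of Pla2g4a was not shown.

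Of the leukotriene genes, Lta4h was the most abundant transcript of the 9, at 154, 142, 147 and 154 CPM with DMSO and 144, 139, 144 and 148 CPM with Yoda1. Its groups overlapped, and the fitted log2 fold change was -0.053 ± 0.039 (SE; adjusted p = 0.426 by edgeR). With 1785 to 2882 counts per Yoda1 library and 2077 to 2589 per DMSO library, the 95% interval was narrow, from 0.912-fold to 1.02-fold.

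Alox5 was at 19.3, 20.8, 20.5 and 19.1 CPM with DMSO and at 18.0, 17.2, 18.1 and 20.01 CPM with Yoda1. Yoda1 replicate 4 lay within the DMSO range and the other 3 Yoda1 libraries below it. The fitted log2 fold change was -0.12 ± 0.073 (SE; adjusted p = 0.326 by edgeR, exact permutation test p = 0.0857), and the 95% interval ran from 0.831-fold to 1.02-fold. Alox5ap, without which 5-lipoxygenase makes little leukotriene in cells, was far lower, at 2.57, 1.64, 1.34 and 1.70 CPM with DMSO and 1.94, 2.50, 2.17 and 1.90 CPM with Yoda1. DMSO replicate 1 was the highest of all 8 and DMSO replicate 3 the lowest. Its fitted log2 fold change was 0.23 ± 0.223 (SE; adjusted p = 0.569 by edgeR), which became 0.45 (adjusted p = 0.237) without DMSO replicate 1 and 0.11 (adjusted p = 0.833) without DMSO replicate 3. Exons of the opposite-strand gene Gm19719 overlap Alox5ap.

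Ltc4s was listed at 1 count in DMSO replicate 1, 1 count in Yoda1 replicate 4 and 0 counts in the other 6 libraries, where 3 counts would correspond to 0.164 to 0.242 CPM. Both groups were below the floor, so no fold is given, and Ltc4s mRNA was not detectable at this depth. Exons of the opposite-strand gene Gm26542 overlap it. The microsomal glutathione transferase Mgst2, which can also conjugate leukotriene A4, was counted 68 to 155 times per library and is described with the other pathway genes.

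Tph1 was the second most abundant of the 9 per length and did not pass the threshold. It was at 113, 107, 105 and 111 CPM with DMSO and at 115, 112, 116 and 117 CPM with Yoda1, from 1419 to 2284 counts. The groups touched, since Yoda1 replicate 2 (112.4) lay just under DMSO replicate 1 (112.6), and all other Yoda1 libraries lay above the DMSO range. Mean CPM was 109 ± 3.30 in the DMSO group and 115 ± 2.22 in the Yoda1 group (SD, n = 4 each; exact permutation test, p = 0.0571). The log2 fold change of 0.081 (SE 0.039) had an edgeR p of 0.0461 before and 0.189 after adjustment. Its 95% interval ran from 0.0015 to 0.16 on the log2 scale, and the upper bound corresponds to 1.12-fold.

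**Figure D2:**
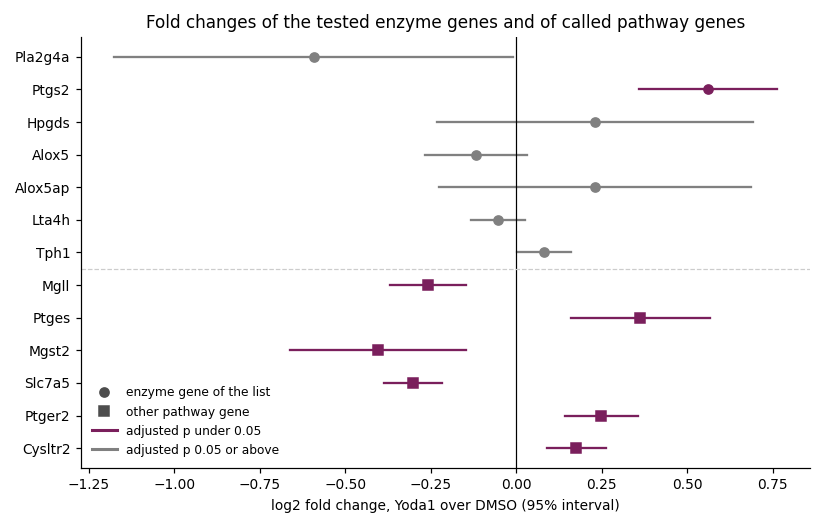
Log2 fold change of Yoda1 over DMSO (x axis, points) with its 95% interval (lines) from edgeR, for the 7 enzyme genes tested (circles) and the 6 other pathway genes past an adjusted p of 0.05 (squares). Purple marks genes past the threshold, which among the enzyme genes is Ptgs2 at 0.56, and the widest intervals belong to Pla2g4a, Hpgds and Alox5ap, which have 10 to 41 counts per library.

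Levels were compared between genes as CPM per kilobase of each gene's principal GENCODE transcript. On this scale Lta4h was highest, at 72.2 CPM per kb on average over the 8 libraries, followed by Tph1 (24.6), Alox5 (6.77), Ptgs2 (2.56), Alox5ap (1.58), Hpgds (0.460), Pla2g4a (0.406), Ptgs1 (0.109) and Ltc4s (0.0220). The order was the same with the length of all exons merged. The ranges over libraries did not overlap between Lta4h and Tph1, Tph1 and Alox5, Alox5 and Ptgs2, Alox5ap and Hpgds, or Pla2g4a and Ptgs1. They overlapped between Ptgs2 and Alox5ap, between Hpgds and Pla2g4a and between Ptgs1 and Ltc4s, so these neighbors cannot be ordered in every library. Among the tested genes with a transcript model, the per-length level of Lta4h stood at percentile 91.9, that of Tph1 at 74.5, that of Alox5 at 40.5, that of Ptgs2 at 23.0 and that of Pla2g4a at 5.26. The genes that prepare leukotriene A4 (Alox5, Alox5ap) and those that release arachidonic acid or make prostaglandin D2 (Pla2g4a, Hpgds) thus lay well below Lta4h in level.

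**Figure D3:**
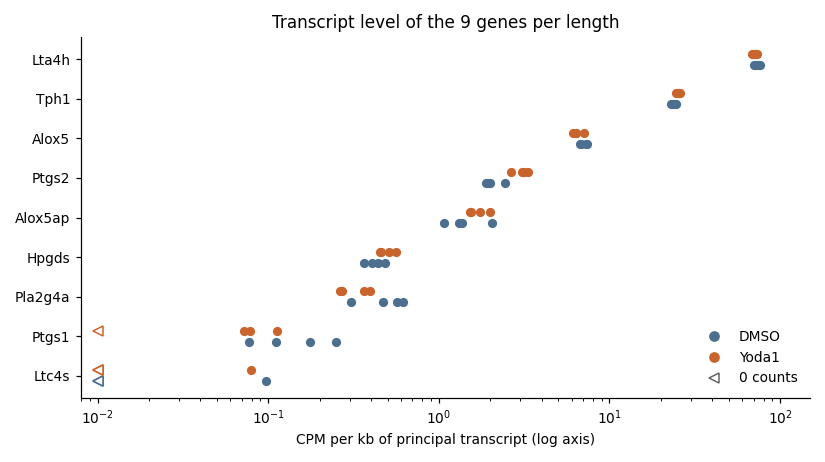
CPM per kb of principal transcript (x axis, log scale) of the 9 enzyme genes in each library, DMSO in blue and Yoda1 in orange, with open triangles at the left edge for libraries with 0 counts. The genes span from 72.2 (Lta4h) to 0.0220 (Ltc4s) CPM per kb on average, and the shift of Ptgs2 to the right with Yoda1 is small beside this span.

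The other genes of these pathways were read from lists of 71 genes for arachidonate supply, prostanoids, lipoxygenases and serotonin, and of 22 receptors. Of the 71, 38 were tested and 4 passed the threshold, 1 higher and 3 lower, which is 10.5% beside 10.9% of all genes. The median log2 fold change of the 38 was -0.081, beside -0.0053 for all genes tested, and 22 of the 71 had 3 counts or fewer in every library.

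Ptges, the inducible microsomal prostaglandin E synthase that acts after Ptgs2, was the 1 gene higher. It was at 8.32, 11.2, 8.70 and 8.57 CPM with DMSO and at 11.9, 11.5, 11.8 and 12.4 CPM with Yoda1. All Yoda1 libraries lay above all DMSO libraries, although DMSO replicate 2 came close to them. The fitted log2 fold change was 0.36 ± 0.099 (SE; adjusted p = 0.0154 by edgeR, exact permutation test p = 0.0286), and the call was lost when DMSO replicate 3 (adjusted p = 0.0510) or Yoda1 replicate 4 (adjusted p = 0.0617) was left out. The constitutive prostaglandin E synthase Ptges3 was far more abundant and had a fitted log2 difference of 0.014 (adjusted p = 0.867 by edgeR), from 159 to 160 CPM on average. Ptges2, near Ptges in level, averaged 10.7 CPM with DMSO and 9.74 CPM with Yoda1 and did not pass (log2 fold change -0.14, adjusted p = 0.384 by edgeR). The thromboxane synthase Tbxas1 was at 0 to 3 counts per library, and Hpgd, which degrades prostaglandins, was at 0 in all 8, which allows at most 0.242 CPM in the shallowest library. The exporter Abcc4 had a fitted log2 difference of 0.015 (adjusted p = 0.910 by edgeR).

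The 3 genes lower past the threshold were Mgll, Mgst2 and Slc7a5. Mgll, a lipase that releases arachidonic acid from the endocannabinoid 2-arachidonoylglycerol, fell from 46.4 ± 2.18 to 38.8 ± 2.40 CPM (SD, n = 4 each; log2 fold change -0.26, adjusted p = 0.00192 by edgeR), with groups that did not overlap. Exons of the opposite-strand gene Gm26588 overlap it. Slc7a5, a transporter of large neutral amino acids including tryptophan, the substrate of Tph1, fell from 199 ± 7.08 to 162 ± 10.1 CPM (log2 fold change -0.30, adjusted p = 6.25e-06 by edgeR), also without overlap. Mgst2 was at 8.51, 7.34, 9.91 and 7.10 CPM with DMSO and at 6.14, 7.49, 5.10 and 5.97 CPM with Yoda1. Its groups overlapped, since Yoda1 replicate 2 lay within the DMSO range. The call of Mgst2 (log2 fold change -0.40, adjusted p = 0.0353 by edgeR) was lost in 7 of 15 alternatives, DESeq2 and the replicate block among them, with adjusted p-values up to 0.158 (without DMSO replicate 3).

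The step after Tph1 is carried out by the decarboxylase Ddc, which was counted 3 to 10 times per library with a mean of 0.367 ± 0.0592 CPM in the DMSO group and 0.369 ± 0.138 in the Yoda1 group (SD, n = 4 each), too low for the test. Tph2, the neuronal hydroxylase, was at 0 to 1 count. Gch1, which makes the first intermediate of the cofactor tetrahydrobiopterin that Tph1 requires, was at 13.4 ± 0.581 and 15.03 ± 0.583 CPM without overlap of the groups, but its log2 fold change of 0.16 did not pass (edgeR adjusted p = 0.200). The vesicular transporter Slc18a2 (3.02 and 2.82 CPM on average) and the oxidase Maoa (2.42 and 2.28 CPM) did not pass either.

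Among 22 receptors for prostanoids, leukotrienes and serotonin, 14 were tested and 2 passed, both higher (14.3% beside 10.9% of all genes). Of the prostaglandin D2 receptors, Ptgdr2 was at 0 to 2 counts per library. Ptgdr averaged 0.722 CPM with DMSO and 0.759 CPM with Yoda1 and did not pass. Ptger2, a receptor of prostaglandin E2, rose from 41.9 ± 2.72 to 49.9 ± 1.03 CPM (SD, n = 4 each; log2 fold change 0.25, adjusted p = 0.00173 by edgeR), and exons of the opposite-strand genes Gm49364 and Gm17173 overlap it. Cysltr2, a receptor of cysteinyl leukotrienes, rose from 82.6 ± 3.14 to 93.1 ± 2.61 CPM (log2 fold change 0.18, adjusted p = 0.00605 by edgeR). The groups did not overlap for either gene. Other receptors of these mediators did not pass. Ptger4, also for prostaglandin E2, averaged 130 CPM with DMSO and 129 CPM with Yoda1 (adjusted p = 0.894 by edgeR). Ptger1 was at 51.1 and 50.9 CPM (adjusted p = 0.956 by edgeR), and Cysltr1 at 195 and 199 CPM (adjusted p = 0.689 by edgeR).

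**Figure D4:**
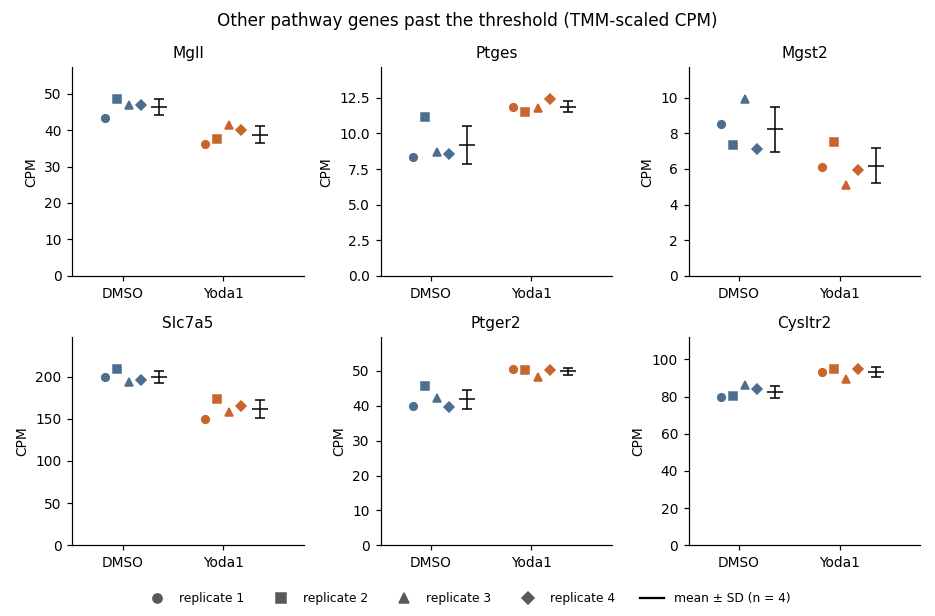
CPM (y axis from 0, a scale for each gene) of the 6 other pathway genes past the threshold in the 4 DMSO and 4 Yoda1 libraries (x axis, with a symbol for each replicate number), with the mean and SD of each group. Ptges, Ptger2 and Cysltr2 are higher and Mgll and Slc7a5 lower with Yoda1 without overlap, while Mgst2 overlaps through Yoda1 replicate 2 at 7.49 CPM.

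The 3 genes whose log2 CPM followed that of Ptgs2 most closely over the 8 libraries, of 12238 compared, were Mdfic (Pearson's r = 0.980), Ppp2r5a (0.980) and Traf5 (0.977). All 3 were higher with Yoda1, with log2 fold changes of 0.15, 0.12 and 0.68, and the libraries share the treatment, so these values are a description.

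The 3′ untranslated regions of the 9 genes were also compared, since the AU-rich pentamer ATTTA is known to mark short-lived mRNAs. In its principal transcript, Ptgs2 has 14 such pentamers in 2445 bases. Of the 11329 tested genes with a model, 2.44% have at least as many, a share not adjusted for length. Pla2g4a has 4 in 443 bases, Tph1 has 3 in 2785 bases, and Hpgds, Alox5 and Alox5ap have 2 each. Per kilobase, Pla2g4a has 9.03, Ptgs2 5.73 and Alox5ap 4.77, so Ptgs2 is highest of the 9 by count but not by density. Ptgs1, Ltc4s and Lta4h have 0, as do 32.5% of all tested genes, and Ptges, the other synthase gene that rose, has 0 in 3106 bases. The densest stretch of 30 bases in Ptgs2 starts at base 12 after the stop codon, at chr1:150105794-150105823 (GRCm38, plus strand), and is shown because it holds 4 of the 14, marked in capitals.
Ptgs2 AU-rich stretch: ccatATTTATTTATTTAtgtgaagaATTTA
The other untranslated regions are described by their counts, and no mRNA half-life was measured in these libraries.

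**Figure D5:**
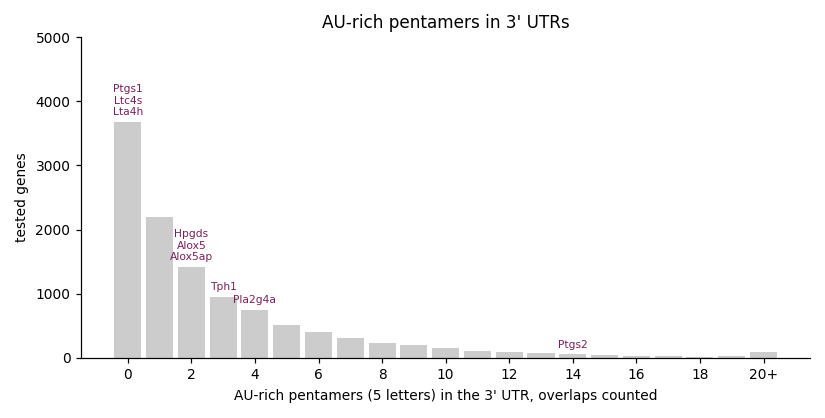
Number of tested genes (y axis, 11329 in all) by the number of AU-rich pentamers in the 3′ untranslated region (x axis, overlapping matches counted, 20 or more pooled), with the 9 enzyme genes written above their bars. By this count, which is not adjusted for length, Ptgs2, with 14, stands apart from the other 8 genes, which have 0 to 4.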

How the data were processed

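The members and the gene lists were chosen with earlier results of these data known. For each library the authors deposited 1 file of whole-number read counts by gene symbol, with no normalization. The libraries were poly(A)-selected and prepared directionally. Quality control with FastQC, trimming with the FASTX Trimmer, mapping with BBMap and estimation with Cufflinks are given in their methods, and the submitters' processing notes name TopHat and mm10. The counting tool, annotation and strand setting are not given in the sources used here. Genes with few reads were removed by filterByExpr of edgeR (at least 10 counts in enough samples and 15 in total), and TMM factors were applied. The 4 Yoda1 libraries were compared with the 4 DMSO libraries in R 4.3.3 with edgeR 4.0.16 (robust quasi-likelihood test over all 12239 genes, Benjamini-Hochberg adjusted p under 0.05), after the fit had been tested on simulated data. A standard error is the absolute log2 fold change over the root of F. Single values were compared with a two-sided exact permutation test (SciPy 1.17.1).

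Likeness used log2 CPM with a prior count of 2. Genes named are the 9 members, other pathway genes past the threshold and fixed neighbors in the pathways, and for a called gene the 3 most like it in pattern. Dclk1, Ptges2, Ptgdr, Ptgdr2, Ptger1, Ptger4 and Cysltr1 were named after their values were seen. Positions and lengths came from GENCODE M21 (GRCm38, the assembly of mm10), which matched 95.5% of symbols, and promoters from RefSeq. Alternatives were DESeq2 1.42.0, limma-voom (limma 3.58.1), upper-quartile factors, scaling by library size alone, no low-count filter, at least 10 counts in every sample, the replicate block and each library left out. Counts are of reads, so depth limits cover counting error only. The replicate libraries of a group all differed by more than sampling noise, with a chi-square per gene of 2.01 to 6.62.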

Additional observations from a re-analysis of the deposited data

Results flagged for a closer look

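Among 28 groups of 4 libraries examined for the 8 detected enzyme genes and the 6 other pathway genes past the threshold, 1 library stood far from the other 3 in 2 groups, where chance gives about 1.4. For Ptges, DMSO replicate 2 was high at 11.2 CPM, the next library being at 8.70. For Ptger2, Yoda1 replicate 3 was low at 48.4 CPM, the next library being at 50.3. None of the 8 enzyme genes examined had a library set apart in this way, and Ltc4s, at 0 or 1 count per library, was not examined.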

How the results depend on the processing

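Ptgs2 was the 1 enzyme gene called under each of the 15 alternatives, with a log2 fold change from 0.51 (without Yoda1 replicate 2) to 0.64 (without DMSO replicate 4) and adjusted p-values up to 0.00348, the value with the replicate block. The other tested enzyme genes kept their direction and stayed above the threshold in all 15, with log2 fold changes from -0.78 to -0.46 for Pla2g4a, 0.15 to 0.30 for Hpgds, -0.17 to -0.085 for Alox5, 0.11 to 0.45 for Alox5ap, -0.083 to -0.035 for Lta4h and 0.051 to 0.098 for Tph1. Of the other pathway genes, 4 to 6 were called in each setting. Of the 6 called in the report, Ptges and Mgst2 lost their call under some alternatives and the other 4 kept it in all 15.

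The correlation of the deviations of same-numbered libraries from their group means ran from -0.028 to 0.071. These values show little common deviation, but they cannot tell if such libraries shared a mouse, pool or batch. With the replicate block 966 genes were called against 1331 without it, and Ptgs2 had a log2 fold change of 0.56. Over the fits that left out a library, the count of called genes ran from 893 to 1484. Low depth limits Ptgs1, Ltc4s and Ddc to counts, and the intervals of Pla2g4a, Hpgds and Alox5ap are wide.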
